A study of Mus musculus with 9 samples.

Results

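The genes described here encode motile cilia and their axoneme, the microtubule core that makes a cilium beat. They were found on the array by gene symbol: every probe whose symbol begins with Dnah, Dnai, Dnal, Rsph, Tekt or Cfap, and every probe of 24 named genes. The rule found 64 of the 24613 probes on the array, for 53 genes. Of these, 25 probes belong to 21 of the named genes (named probes), and 39 probes of 32 genes were found by prefix alone (family probes). No probe carried the symbol Spag17, Ak7 or Ccdc153. The named genes were chosen with their values in these cultures known, so their levels are given as a description, without a test. The prefixes were also set with earlier results known, and for family probes the adjusted p comes from a fit over the whole array.

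A motile cilium has an axoneme of outer microtubule doublets around a central pair. Dynein arms on the doublets pull on the neighbouring doublet, and the radial spokes and the central apparatus control their beat. In the brain, motile cilia sit in tufts on ependymal cells, which line the ventricles, and on the epithelium of the choroid plexus, and Foxj1 is the transcription factor that switches on their genes.

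Messenger RNA was profiled on 9 Illumina mouse bead arrays of primary glia (the cells of nervous tissue other than neurons) from pups of 1 to 3 days of age (P1 to P3). The tissue was freed of meninges and the cells were grown to confluence, and the brain region is not given in the sources used here. Nontransgenic pups are labelled B6SJL 2Gur/J, SOD1-G93A pups B6SJL-Tg(SOD1*G93A)2Gur/J and SOD1-WT pups B6SJL-Tg(SOD1)2Gur/J. SOD1 encodes superoxide dismutase 1, the G93A mutation is a cause of familial amyotrophic lateral sclerosis (ALS), the SOD1-WT transgene is the normal human gene, and all groups share the B6SJL background. Each group has 3 arrays, described by the submitters as biological replicates. Whether they came from separate litters is not given, so the spread between replicates may be in part technical.

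Each of the 9 arrays detected 13107 to 13618 probes. The mean raw intensity was 211 to 236 on 8 arrays and 279.6 on SOD1-WT replicate 3, which stood apart in its bead noise too. On that array the median standard error of the beads was 8.54% of the signal over the kept motile cilia probes, against 4.49% to 5.22% on the other arrays. Counts are therefore also given without it. Values are log2 of background-corrected, quantile-normalised intensity, on which a difference of 1 is a doubling, and a probe was kept if at least 3 of the 9 arrays detected it, at a detection p below 0.01. Precision is limited by the number of arrays.

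Promoter sequences were taken from RefSeq (assembly GRCm38.p6) as windows from 250 bases before to 50 bases after the start of a gene. Windows were held for 45 of the 53 genes. They were searched on both strands for GTTGCCA, 1 arm of the X-box bound by the RFX factors that work with Foxj1 on ciliary genes, and for the forkhead motif GTAAACA. The X-box arm was in the windows of 11 of the 45 genes (24.4%), against 1358 of 27025 genes with a window (5.02%). The forkhead motif was in 3 of 45 (6.67%), against 1095 of 27025 (4.05%). A match is a run of letters in these windows and was not tested as a binding site. The windows below belong to the 4 genes with a kept probe and an X-box arm whose level in SOD1-WT glia exceeded that in nontransgenic glia most, and capitals mark the arm on either strand.
Cfap161: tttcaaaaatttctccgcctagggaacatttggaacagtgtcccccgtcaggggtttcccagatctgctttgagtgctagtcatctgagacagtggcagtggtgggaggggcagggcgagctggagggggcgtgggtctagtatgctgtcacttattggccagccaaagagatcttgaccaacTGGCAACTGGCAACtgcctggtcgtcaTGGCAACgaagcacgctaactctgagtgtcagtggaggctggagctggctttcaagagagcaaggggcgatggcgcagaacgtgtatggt
Pifo: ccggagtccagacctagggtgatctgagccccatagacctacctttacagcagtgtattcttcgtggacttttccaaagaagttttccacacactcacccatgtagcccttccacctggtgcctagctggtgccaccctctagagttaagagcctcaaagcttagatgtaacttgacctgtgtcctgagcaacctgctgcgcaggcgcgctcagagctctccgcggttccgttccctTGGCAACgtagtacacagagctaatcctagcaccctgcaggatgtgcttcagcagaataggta
Tekt1: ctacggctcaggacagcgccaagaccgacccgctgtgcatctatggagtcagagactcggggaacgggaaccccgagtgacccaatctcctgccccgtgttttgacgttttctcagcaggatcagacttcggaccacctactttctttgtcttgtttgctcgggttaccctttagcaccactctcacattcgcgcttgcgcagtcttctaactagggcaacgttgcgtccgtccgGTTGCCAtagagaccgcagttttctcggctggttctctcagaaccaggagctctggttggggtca
Cfap97d2: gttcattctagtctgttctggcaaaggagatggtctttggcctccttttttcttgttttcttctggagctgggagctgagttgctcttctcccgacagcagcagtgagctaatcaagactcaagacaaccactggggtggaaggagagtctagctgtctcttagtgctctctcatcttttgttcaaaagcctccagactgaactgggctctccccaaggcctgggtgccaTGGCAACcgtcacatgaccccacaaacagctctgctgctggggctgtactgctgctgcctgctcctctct
All 4 run from 5′ to 3′ on the strand of the gene. In the Cfap161 window, on the minus strand at chr7:83794790-83795089, the arm begins 67, 60 and 40 bases before the start, the first pair in direct succession. In the Pifo window (minus strand, chr3:106001448-106001747) it begins 13 bases before the start. In the Tekt1 window (minus strand, chr11:72361833-72362132) it begins 15 bases before, and in the Cfap97d2 window (plus strand, chr8:13705639-13705938) 20 bases before. Pifo and Tekt1 each have a further window, which holds no arm. Windows of other genes with wide log2 differences between SOD1-WT and nontransgenic glia hold no arm, among them Odf3b (2.78), 1110017D15Rik (2.41) and Cfap52 (2.28). Those of Cfap20 (0.23) and Cfap74 (0.31), with small differences, do hold an arm. Whether the arm goes with the size of the difference was not tested.

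SOD1-WT glia had more motile cilia transcripts than nontransgenic glia, among them dynein arm, radial spoke, central apparatus and doublet genes. The 28 kept family probes belong to 24 genes, so some genes are counted more than once. Of these probes, 23 rose and 0 fell in SOD1-WT against nontransgenic glia (limma adjusted p below 0.05, Benjamini-Hochberg over 13972 kept probes). Over all kept probes 13.5% were higher and 11.8% lower in that comparison. Since a probe could be kept through its high group alone, the count was repeated without the filter, where 22 of all 39 family probes rose, and over the 21 detected on all 9 arrays, where 17 rose. Without SOD1-WT replicate 3 it was 22 of 26. Over all probes 1785 of 24613, 1636 of 11739 and 1801 of 13821 rose in these runs, in the same order. The median difference of all 39 family probes was 0.61, against 0.00 for all kept probes. All 22 kept named probes were higher on every SOD1-WT array than on every nontransgenic array, as were 19.7% of all kept probes, and nothing is read from that count, since they were chosen with these values known. The median difference of all 25 named probes was 1.57.

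SOD1-G93A glia lay closer to nontransgenic glia, with a smaller shift in the same direction at some probes. Against nontransgenic glia 6 of the 28 kept family probes rose and 0 fell, beside 5.11% higher and 5.53% lower over all kept probes. The 6 are both probes of Cfap69, both of Cfap206, and those of Tekt4 and Cfap97d2, so they stand for fewer genes. The calls of Cfap206 and Tekt4 were lost under 4 to 9 of 16 alternatives. The count was 5 of 39 without the filter, beside 605 of 24613 over all probes. It was 6 of 21 among probes detected on all 9 arrays, beside 598 of 11739. It dropped to 3 without nontransgenic replicate 1 (of 27 kept), beside 467 of 13822. It was also 3 (of 28) without nontransgenic replicate 3 or SOD1-G93A replicate 1, beside 587 of 13821 and 471 of 13837. Against SOD1-WT glia 18 of the 28 fell and 0 rose, beside 8.13% lower and 6.91% higher over all kept probes. Here SOD1-WT is the high group, through which a probe could be kept. Without the filter 18 of 39 fell, beside 1049 of 24613 over all probes. Of the 21 detected on all 9 arrays 13 fell, beside 938 of 11739. Without SOD1-WT replicate 3 the count was 19 of 26, beside 994 of 13821. Of the 22 named probes, 13 were higher on every SOD1-G93A array than on every nontransgenic array and 1 was lower, beside 15.4% and 14% of all kept probes. All 22 were lower on every SOD1-G93A array than on every SOD1-WT array, as were 15.4% of all kept probes. Nothing is read from these counts of named probes either, since the probes were chosen with these values known. The comparisons share arrays, so their counts are not independent. In cultured cells measured in bulk, fewer cells of a type and less RNA per cell cannot be told apart.

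**Figure D1:**
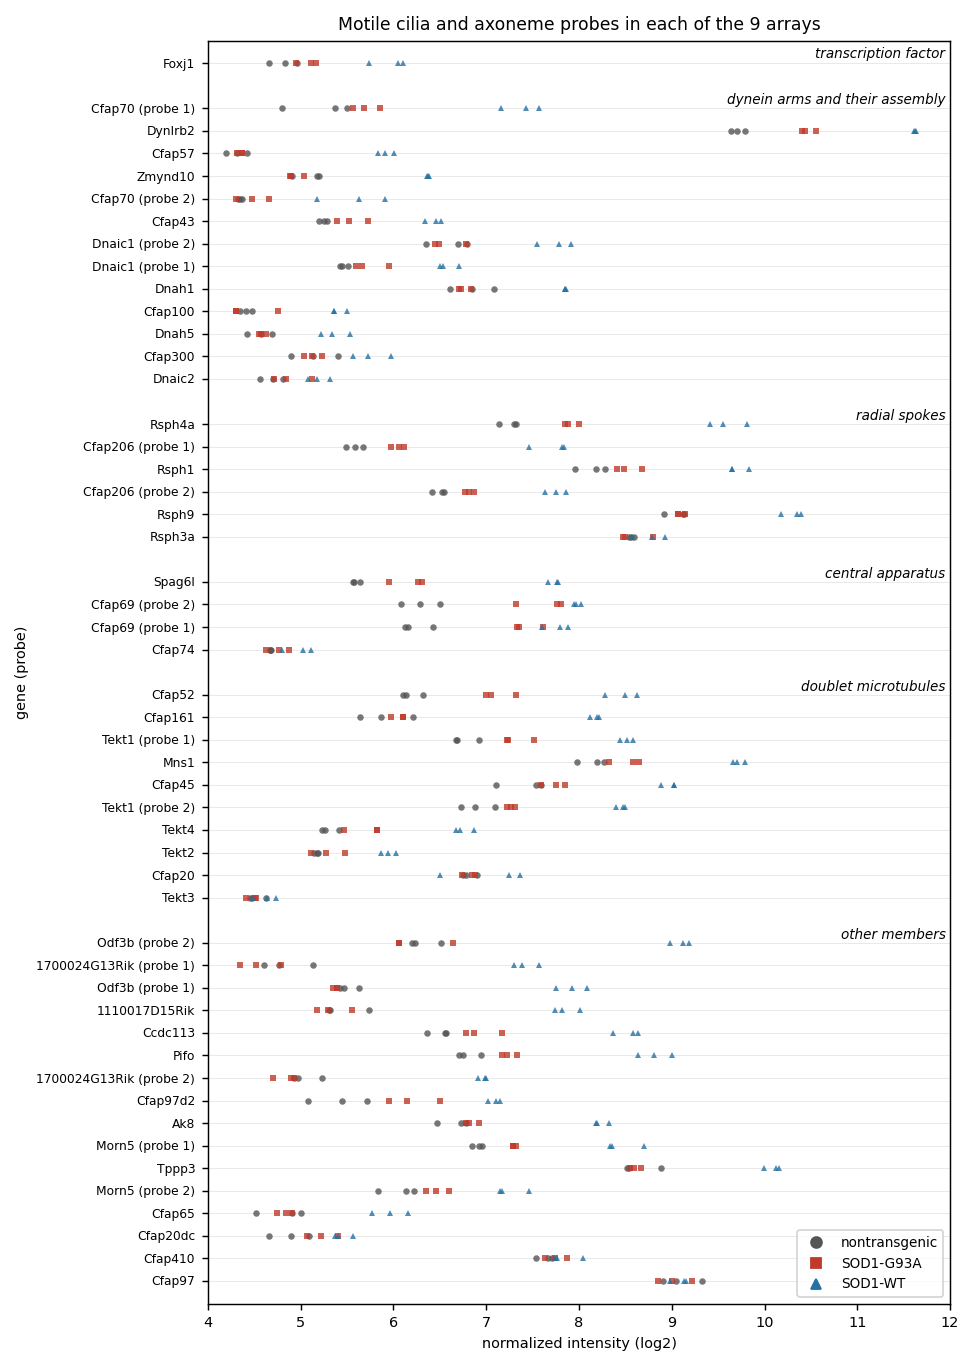
Normalised intensity (log2, horizontal axis) of the 50 kept motile cilia and axoneme probes on each of the 9 arrays, grouped by role. Points are single arrays: grey circles nontransgenic, red squares SOD1-G93A, blue triangles SOD1-WT. Every SOD1-WT point lies to the right of every SOD1-G93A point at 22 of 22 named and 19 of 28 family probes. The named probes were chosen with these values known, so nothing is read from their count.

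Foxj1, the master transcription factor of motile cilia, was detected on all 9 arrays, so the label of the group fits its marker. Its log2 intensity was 4.66, 4.96 and 4.83 on nontransgenic arrays, 5.16, 4.95 and 5.11 on SOD1-G93A arrays and 5.73, 6.05 and 6.10 on SOD1-WT arrays. The lowest detected signals of the nontransgenic arrays were 4.59, 4.64 and 4.61, so the Foxj1 values there lie near background. The SOD1-WT arrays were the 3 highest, while the other groups overlapped by a single SOD1-G93A array. Group means (± SD, n = 3) were 4.81 ± 0.15 for nontransgenic, 5.07 ± 0.11 for SOD1-G93A and 5.96 ± 0.20 for SOD1-WT glia, so the SOD1-WT mean was 2.22-fold above the nontransgenic mean.

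Among the dynein arm genes, the heavy chains carry the motor and the intermediate chains Dnaic1 and Dnaic2 anchor the outer arm. Dnah1, an inner arm heavy chain, gave 6.84, 7.08 and 6.61 on nontransgenic arrays, 6.73, 6.71 and 6.83 on SOD1-G93A arrays and 7.86, 7.84 and 7.84 on SOD1-WT arrays. The SOD1-WT values lay close together and above all others, a 2.01-fold rise over nontransgenic glia (log2 difference 1.00 ± 0.11 SE, limma adjusted p = 1.48e-05), and SOD1-G93A glia did not pass against nontransgenic glia (-0.09, adjusted p = 0.748). Dnah5, an outer arm heavy chain, gave 4.69, 4.57 and 4.42 on nontransgenic arrays, 4.55, 4.57 and 4.63 on SOD1-G93A arrays and 5.53, 5.22 and 5.33 on SOD1-WT arrays. It was detected on 1 nontransgenic, 0 SOD1-G93A and 3 SOD1-WT arrays, so it was kept only because of its high group. It rose by 0.80 ± 0.11 in SOD1-WT glia (adjusted p = 6.99e-05) and, in SOD1-G93A glia, was at least 1.68-fold lower than in SOD1-WT glia (adjusted p = 0.000155). Such a bound sets the bright group against the lowest detected signal of each array of the dim group, where the probe was not detected. Both Dnah5 calls held under the 15 alternatives that kept the probe, the fit without the filter among them (limma adjusted p at most 0.000645 and 0.00137).

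Dnaic1 had a pair of probes. The first gave 5.42, 5.45 and 5.51 on nontransgenic arrays, 5.66, 5.96 and 5.59 on SOD1-G93A arrays and 6.70, 6.53 and 6.51 on SOD1-WT arrays. The second gave 6.35, 6.79 and 6.69 on nontransgenic arrays, 6.50, 6.44 and 6.78 on SOD1-G93A arrays and 7.54, 7.91 and 7.79 on SOD1-WT arrays. On both, SOD1-WT arrays were the highest, with rises of 1.12 and 1.13 over nontransgenic glia (adjusted p = 3.46e-06 and 2.71e-05), while SOD1-G93A lay above nontransgenic on the first probe and among its values on the second. Dnaic2 gave 4.56, 4.81 and 4.70 on nontransgenic arrays, 4.84, 4.71 and 5.12 on SOD1-G93A arrays and 5.17, 5.08 and 5.32 on SOD1-WT arrays. SOD1-WT and SOD1-G93A arrays overlapped here. The SOD1-WT rise was 0.50 ± 0.12 (adjusted p = 0.00716) and the difference of -0.30 between SOD1-G93A and SOD1-WT glia did not pass (adjusted p = 0.124).

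Cfap57, Cfap43 and Cfap100 are inner arm proteins and Cfap70 an outer arm protein, roles known from Chlamydomonas and other species. Cfap57 gave 4.19, 4.42 and 4.31 on nontransgenic arrays, 4.37, 4.31 and 4.37 on SOD1-G93A arrays and 6.01, 5.84 and 5.91 on SOD1-WT arrays. It was detected on the 3 SOD1-WT arrays and on none of the others, so it was kept through its high group alone, and its adjusted p is given from the fit without the filter. It was at least 2.47-fold higher in SOD1-WT than in nontransgenic glia (adjusted p = 2.99e-06), and SOD1-G93A glia were at least 2.47-fold below SOD1-WT glia (adjusted p = 6.35e-06). Cfap100 gave 4.48, 4.41 and 4.35 on nontransgenic arrays, 4.31, 4.75 and 4.31 on SOD1-G93A arrays and 5.50, 5.36 and 5.36 on SOD1-WT arrays. It was detected on 0 nontransgenic arrays and was at least 1.74-fold higher in SOD1-WT glia (adjusted p = 2.85e-05), and 1 SOD1-G93A array stood above the other 2. Cfap43 gave 5.29, 5.25 and 5.20 on nontransgenic arrays, 5.40, 5.72 and 5.52 on SOD1-G93A arrays and 6.51, 6.34 and 6.45 on SOD1-WT arrays. The groups did not overlap, with a rise of 1.19 ± 0.10 in SOD1-WT glia (adjusted p = 1.04e-06) and 0.30 in SOD1-G93A glia that did not pass (adjusted p = 0.089). Its other probe was detected on 0 arrays.

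Cfap70 gave 4.80, 5.50 and 5.37 on nontransgenic arrays, 5.69, 5.85 and 5.56 on SOD1-G93A arrays and 7.57, 7.16 and 7.42 on SOD1-WT arrays on its first probe. Its second probe gave 4.32, 4.35 and 4.37 on nontransgenic arrays, 4.48, 4.65 and 4.30 on SOD1-G93A arrays and 5.91, 5.63 and 5.18 on SOD1-WT arrays. Both put the SOD1-WT arrays on top, by 2.16 ± 0.17 (adjusted p = 2.47e-07) and by a factor of at least 1.95 (adjusted p = 3.46e-05), the second being detected on 0 nontransgenic arrays. That probe was kept only because of its high group. Its call held under the 15 alternatives that kept it, the fit without the filter among them (limma adjusted p at most 0.00188). Against nontransgenic glia SOD1-G93A glia did not pass on either (0.48, adjusted p = 0.0897, and, with the second detected on 1 SOD1-G93A array, adjusted p = 0.708).

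Dynlrb2, a roadblock light chain of dynein, and Zmynd10 and Cfap300, which help to assemble dynein arms in the cytoplasm, complete this group. Dynlrb2 gave 9.64, 9.79 and 9.70 on nontransgenic arrays, 10.44, 10.56 and 10.41 on SOD1-G93A arrays and 11.61, 11.62 and 11.63 on SOD1-WT arrays. Its groups were far apart relative to their spread, with the SOD1-WT mean 3.75-fold and the SOD1-G93A mean 1.69-fold above the nontransgenic mean. Zmynd10 gave 5.18, 5.20 and 4.90 on nontransgenic arrays, 4.89, 4.90 and 5.03 on SOD1-G93A arrays and 6.37, 6.39 and 6.36 on SOD1-WT arrays. Only SOD1-WT stood apart, 2.43-fold above nontransgenic glia. Cfap300 gave 5.40, 5.13 and 4.89 on nontransgenic arrays, 5.23, 5.03 and 5.12 on SOD1-G93A arrays and 5.73, 5.97 and 5.56 on SOD1-WT arrays. It rose by 0.61 ± 0.14 in SOD1-WT glia (adjusted p = 0.00421), with nontransgenic and SOD1-G93A arrays intermixed. The probes of Dnah8, Dnal4 and Cfap298 and a second probe of Dnah1 were detected on 0 of the 9 arrays.

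The radial spoke heads are built from Rsph1, Rsph4a and Rsph9, and the spoke stalk holds Rsph3a. Rsph4a gave 7.14, 7.33 and 7.30 on nontransgenic arrays, 8.0, 7.88 and 7.85 on SOD1-G93A arrays and 9.55, 9.41 and 9.82 on SOD1-WT arrays. The groups were stepwise, which here means nontransgenic lowest, SOD1-G93A between and SOD1-WT highest with no overlap, with SOD1-G93A 1.58-fold and SOD1-WT 5.06-fold above nontransgenic. Rsph1 gave 7.96, 8.18 and 8.28 on nontransgenic arrays, 8.48, 8.41 and 8.67 on SOD1-G93A arrays and 9.64, 9.65 and 9.83 on SOD1-WT arrays. Its order was the same, with 1.30-fold and 2.97-fold differences from the nontransgenic mean. Rsph9 gave 9.12, 9.13 and 8.92 on nontransgenic arrays, 9.15, 9.07 and 9.07 on SOD1-G93A arrays and 10.35, 10.39 and 10.17 on SOD1-WT arrays. Here SOD1-G93A and nontransgenic arrays overlapped, and the SOD1-WT mean was 2.37-fold above the nontransgenic mean.

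Cfap206, which docks a radial spoke to the doublet, as known from Tetrahymena, gave 5.59, 5.68 and 5.49 on nontransgenic arrays, 6.06, 5.97 and 6.12 on SOD1-G93A arrays and 7.84, 7.46 and 7.81 on SOD1-WT arrays on its first probe. Its second probe gave 6.42, 6.54 and 6.53 on nontransgenic arrays, 6.87, 6.81 and 6.78 on SOD1-G93A arrays and 7.86, 7.64 and 7.75 on SOD1-WT arrays. No groups overlapped on either probe. The SOD1-WT rises were 2.12 ± 0.11 and 1.25 ± 0.10 (adjusted p = 7.98e-09 and 2.46e-07), so the probes disagreed in size. The SOD1-G93A rises were 0.47 ± 0.11 and 0.32 ± 0.10 (adjusted p = 0.0171 and 0.0475), calls that were lost under 4 and 9 of 16 alternatives. Rsph3a lay between 8.47 and 8.93 on all arrays and passed in no comparison (0.20, adjusted p = 0.261, for SOD1-WT against nontransgenic glia). Rsph6a and Cfap61 were detected on 0 arrays.

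In the central apparatus, Spag6l, a protein of the central pair, gave 5.57, 5.58 and 5.64 on nontransgenic arrays, 6.31, 6.27 and 5.95 on SOD1-G93A arrays and 7.76, 7.77 and 7.66 on SOD1-WT arrays. The groups did not overlap and the SOD1-WT mean was 4.40-fold above the nontransgenic mean. Hydin, whose loss in mice causes hydrocephalus, was detected on 2 SOD1-WT arrays and no others. It gave 4.17, 4.22 and 4.19 on nontransgenic arrays, 4.18, 4.34 and 4.20 on SOD1-G93A arrays and 5.32, 5.13 and 4.63 on SOD1-WT arrays, at least 1.33-fold higher in SOD1-WT than in nontransgenic glia. Spag16 was detected on 0 arrays. Cfap74 rose by 0.31 ± 0.11 in SOD1-WT glia (adjusted p = 0.0498) from 4.67, 4.68 and 4.67 on nontransgenic arrays, 4.63, 4.87 and 4.77 on SOD1-G93A arrays and 5.11, 4.80 and 5.02 on SOD1-WT arrays. This call sat at the threshold and was lost under 13 of 16 alternatives. A second Cfap74 probe was detected on 0 arrays.

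Cfap69, a central pair protein needed for sperm motility in mice, was high in both transgenic groups. Its first probe gave 6.12, 6.43 and 6.15 on nontransgenic arrays, 7.35, 7.33 and 7.62 on SOD1-G93A arrays and 7.88, 7.79 and 7.60 on SOD1-WT arrays. Its second gave 6.08, 6.29 and 6.50 on nontransgenic arrays, 7.32, 7.81 and 7.76 on SOD1-G93A arrays and 8.02, 7.95 and 7.96 on SOD1-WT arrays. On both probes each SOD1-G93A array lay above each nontransgenic array. SOD1-G93A rises were 1.20 ± 0.12 and 1.34 ± 0.14 (adjusted p = 1.53e-05 and 1.77e-05), and SOD1-WT rises 1.52 and 1.69 (adjusted p = 3.64e-07 and 4.67e-07). SOD1-G93A minus SOD1-WT was -0.32 ± 0.12 and -0.35 ± 0.14, which did not pass (adjusted p = 0.0946 and 0.117). The SOD1-G93A calls held under all 16 alternatives.

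**Figure D2:**
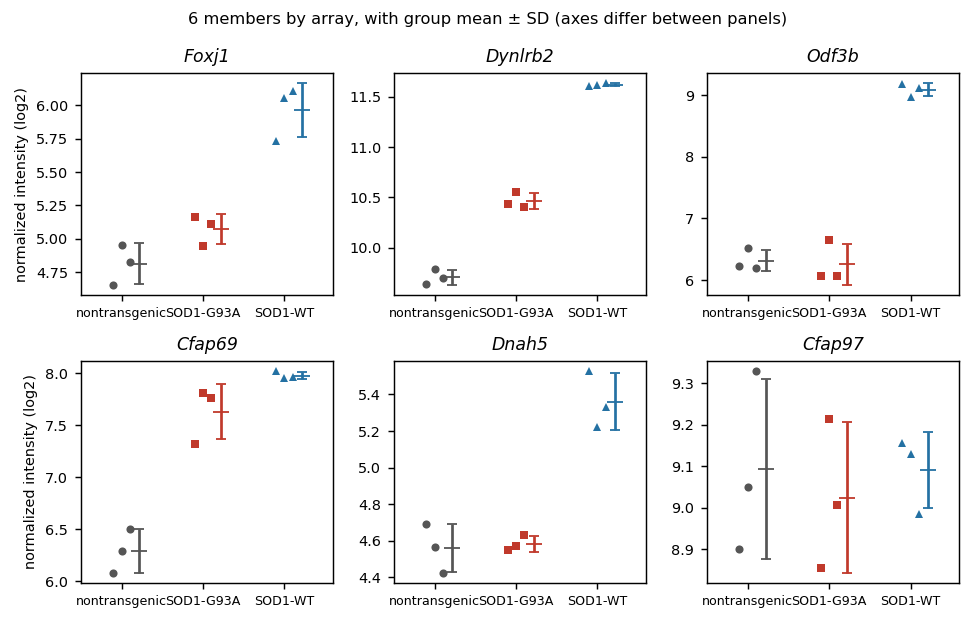
Normalised intensity (log2, vertical axes, which differ between panels) of 6 members on each array, with group mean ± SD (n = 3) at the right of the points. Dynlrb2 is stepwise from 9.64 to 11.63, Odf3b (probe 2) and Dnah5 are high in SOD1-WT glia only, Cfap69 (probe 2) is high in both transgenic groups, and the Cfap97 groups overlap.

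Tektins run along the doublet microtubules, and Cfap52, Cfap45, Cfap161, Mns1 and Cfap20 lie inside them or at their junction. Cfap161 gave 5.87, 6.21 and 5.64 on nontransgenic arrays, 5.98, 6.10 and 6.10 on SOD1-G93A arrays and 8.22, 8.20 and 8.11 on SOD1-WT arrays. SOD1-WT stood apart by 2.27 ± 0.13 (4.83-fold, adjusted p = 1.15e-08), the largest rise among family probes, while SOD1-G93A arrays lay within the nontransgenic range (0.15, adjusted p = 0.563). Cfap52 gave 6.10, 6.14 and 6.32 on nontransgenic arrays, 7.32, 7.0 and 7.05 on SOD1-G93A arrays and 8.63, 8.50 and 8.28 on SOD1-WT arrays. It was stepwise, with SOD1-G93A 1.91-fold and SOD1-WT 4.87-fold above nontransgenic. Cfap45 gave 7.11, 7.53 and 7.59 on nontransgenic arrays, 7.59, 7.76 and 7.85 on SOD1-G93A arrays and 9.03, 9.02 and 8.89 on SOD1-WT arrays. The rise in SOD1-WT glia was 1.57 ± 0.13 (adjusted p = 4.77e-07) and the SOD1-G93A difference of 0.32 did not pass (adjusted p = 0.142).

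Mns1, a protein inside the doublets, gave 7.98, 8.19 and 8.27 on nontransgenic arrays, 8.32, 8.64 and 8.58 on SOD1-G93A arrays and 9.71, 9.66 and 9.79 on SOD1-WT arrays. It too was stepwise, 1.29-fold and 2.97-fold above nontransgenic. Tekt1 gave 6.67, 6.92 and 6.69 on nontransgenic arrays, 7.51, 7.23 and 7.22 on SOD1-G93A arrays and 8.45, 8.58 and 8.51 on SOD1-WT arrays on its first probe and 6.73, 7.09 and 6.88 on nontransgenic arrays, 7.26, 7.22 and 7.31 on SOD1-G93A arrays and 8.40, 8.50 and 8.47 on SOD1-WT arrays on its second. Both probes were stepwise, with SOD1-WT means 3.37-fold and 2.95-fold above nontransgenic. Tekt2 gave 5.18, 5.18 and 5.15 on nontransgenic arrays, 5.48, 5.12 and 5.27 on SOD1-G93A arrays and 5.86, 5.94 and 6.03 on SOD1-WT arrays. It rose by 0.77 ± 0.11 in SOD1-WT glia (adjusted p = 8.82e-05), and SOD1-G93A arrays overlapped the nontransgenic ones.

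Tekt4 gave 5.26, 5.41 and 5.23 on nontransgenic arrays, 5.82, 5.82 and 5.47 on SOD1-G93A arrays and 6.72, 6.68 and 6.87 on SOD1-WT arrays. Groups did not overlap. It rose by 1.45 ± 0.11 in SOD1-WT (adjusted p = 3.5e-07) and 0.40 ± 0.11 in SOD1-G93A glia (adjusted p = 0.0396), the second call being lost under 9 of 16 alternatives. Tekt3 and Cfap20 passed in no comparison, at 0.10 (adjusted p = 0.506) and 0.23 (adjusted p = 0.372) for SOD1-WT against nontransgenic glia. The Cfap20 value turned on SOD1-WT replicate 3, which read 6.51 against 7.25 and 7.37 on the other SOD1-WT arrays. Cfap53 was detected on 0 arrays.

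Among named genes with other or less settled roles, some of the widest SOD1-WT differences came with SOD1-G93A values among or below the nontransgenic ones. Odf3b, a relative of the outer dense fibre proteins of sperm, gave 6.23, 6.52 and 6.20 on nontransgenic arrays, 6.07, 6.64 and 6.07 on SOD1-G93A arrays and 9.18, 8.98 and 9.12 on SOD1-WT arrays on its second probe and 5.43, 5.63 and 5.46 on nontransgenic arrays, 5.39, 5.40 and 5.35 on SOD1-G93A arrays and 8.08, 7.92 and 7.75 on SOD1-WT arrays on its first. SOD1-WT means were 6.85-fold and 5.32-fold above nontransgenic means, while on the first probe all SOD1-G93A arrays were lower than all nontransgenic ones (-0.12). The gene 1700024G13Rik gave 4.76, 5.14 and 4.60 on nontransgenic arrays, 4.51, 4.79 and 4.35 on SOD1-G93A arrays and 7.39, 7.57 and 7.30 on SOD1-WT arrays on its first probe and 4.93, 5.23 and 4.97 on nontransgenic arrays, 4.90, 4.70 and 4.93 on SOD1-G93A arrays and 6.98, 7.0 and 6.91 on SOD1-WT arrays on its second. The first probe was detected on 2 nontransgenic and 1 SOD1-G93A arrays, so the low values there lie near background. SOD1-WT arrays were the highest on both probes, and on the second, detected on all 9 arrays, the SOD1-WT mean was 3.78-fold above nontransgenic and the SOD1-G93A difference was -0.20. The gene 1110017D15Rik gave 5.73, 5.32 and 5.30 on nontransgenic arrays, 5.30, 5.55 and 5.17 on SOD1-G93A arrays and 8.01, 7.82 and 7.75 on SOD1-WT arrays. Its SOD1-WT mean was 5.30-fold above nontransgenic, with the other groups intermixed.

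Tppp3, a tubulin polymerisation-promoting protein, gave 8.52, 8.88 and 8.54 on nontransgenic arrays, 8.55, 8.67 and 8.60 on SOD1-G93A arrays and 9.99, 10.16 and 10.12 on SOD1-WT arrays. It also stood apart in SOD1-WT glia alone, by 2.72-fold. Ak8, an adenylate kinase, gave 6.47, 6.73 and 6.78 on nontransgenic arrays, 6.92, 6.78 and 6.81 on SOD1-G93A arrays and 8.19, 8.32 and 8.18 on SOD1-WT arrays. Its SOD1-WT mean was 2.98-fold above nontransgenic, and the SOD1-G93A mean 1.13-fold. Ccdc113, a coiled-coil protein of cilia, gave 6.36, 6.57 and 6.56 on nontransgenic arrays, 6.78, 7.17 and 6.87 on SOD1-G93A arrays and 8.37, 8.63 and 8.58 on SOD1-WT arrays. The SOD1-WT mean was 4.09-fold and the SOD1-G93A mean 1.36-fold above nontransgenic, with no overlap between groups.

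Pifo, which takes part in the disassembly of primary cilia, gave 6.71, 6.95 and 6.75 on nontransgenic arrays, 7.17, 7.33 and 7.22 on SOD1-G93A arrays and 8.63, 8.81 and 9.0 on SOD1-WT arrays. Its groups were stepwise, with means 1.36-fold and 4.03-fold above nontransgenic. Morn5 gave 6.96, 6.85 and 6.92 on nontransgenic arrays, 7.29, 7.28 and 7.32 on SOD1-G93A arrays and 8.36, 8.33 and 8.70 on SOD1-WT arrays on its first probe and 6.22, 5.84 and 6.14 on nontransgenic arrays, 6.60, 6.45 and 6.35 on SOD1-G93A arrays and 7.17, 7.46 and 7.15 on SOD1-WT arrays on its second. Both probes were stepwise, and the SOD1-WT means were 2.94-fold and 2.29-fold above nontransgenic. Tmem212 was detected on 0 arrays.

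Of the remaining family genes, Cfap97d2 gave 5.08, 5.45 and 5.72 on nontransgenic arrays, 5.95, 6.15 and 6.50 on SOD1-G93A arrays and 7.10, 7.02 and 7.15 on SOD1-WT arrays. It rose in both transgenic groups, by 0.79 ± 0.16 in SOD1-G93A (adjusted p = 0.00504) and 1.68 ± 0.16 in SOD1-WT glia (adjusted p = 2.41e-06), and the difference between them passed as well (-0.89, adjusted p = 0.00142). The SOD1-G93A call held under all 16 alternatives. Cfap65, linked to the sperm flagellum in mice and people, gave 5.00, 4.90 and 4.51 on nontransgenic arrays, 4.84, 4.75 and 4.90 on SOD1-G93A arrays and 6.16, 5.76 and 5.96 on SOD1-WT arrays. It rose in SOD1-WT glia by 1.15 ± 0.14 (adjusted p = 1.84e-05), with the other groups intermixed. Cfap20dc gave 5.09, 4.90 and 4.66 on nontransgenic arrays, 5.07, 5.41 and 5.22 on SOD1-G93A arrays and 5.40, 5.56 and 5.37 on SOD1-WT arrays. Its SOD1-WT rise was 0.56 ± 0.13 (adjusted p = 0.00413), and SOD1-G93A did not pass against either group (0.35, adjusted p = 0.103, and -0.21, adjusted p = 0.318).

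Cfap410, found at the base of cilia, and Cfap97 passed in no comparison. For SOD1-WT against nontransgenic glia they gave 0.22 ± 0.11 (adjusted p = 0.183) and 0.00 ± 0.13 (adjusted p = 0.988). Cfap36 was detected on 0 arrays and Cfap97d1 on 1 nontransgenic array only.

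**Figure D3:**
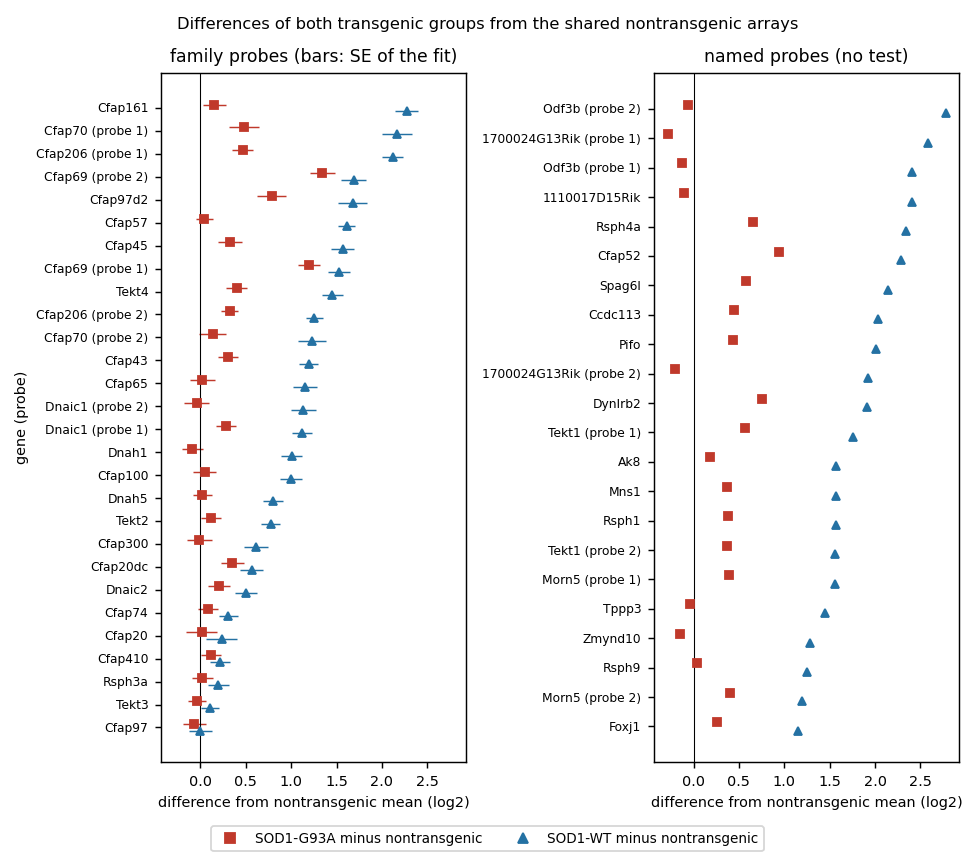
Difference of each transgenic group from the nontransgenic mean (log2, horizontal axis) for the kept family probes (left, bars are the SE of the fit) and named probes (right, no test). Red squares are SOD1-G93A and blue triangles SOD1-WT, both taken from the same 3 nontransgenic arrays; the SOD1-WT values reach 2.27 (Cfap161) on the left and 2.78 (Odf3b) on the right.

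Other genes of the motile cilium, from 4 lists that share no kept gene with the members, moved the same way. These lists were also chosen with earlier results of these data known. Of 72 listed genes, 51 had a probe and 34 were kept, a gene with several kept probes being represented by the brightest. In SOD1-WT against nontransgenic glia 27 of the 34 rose and 0 fell, with a median difference of 0.77. Over all kept probes 13.5% were higher and 11.8% lower. The count of listed genes that rose was 28 of 51 without the filter and 18 of the 25 detected on all arrays. It was 23 of 29 without SOD1-WT replicate 3. Over all probes, 1785 of 24613 rose without the filter, and 1636 of the 11739 detected on all arrays. Without SOD1-WT replicate 3 it was 1801 of 13821. In SOD1-G93A against nontransgenic glia 9 rose and 0 fell (median 0.29), beside 5.11% higher and 5.53% lower over all kept probes. That count was 5 without nontransgenic replicate 1, beside 467 of 13822 over all kept probes. In SOD1-G93A against SOD1-WT glia 24 fell and 0 rose (median -0.51), beside 8.13% lower and 6.91% higher over all kept probes. Without the filter 24 of 51 fell, beside 1049 of 24613 over all probes. Of the 25 detected on all arrays 17 fell, beside 938 of 11739. Without SOD1-WT replicate 3, 19 of 29 fell and 1 rose, the brighter probe of Dnaaf1 (0.39, limma adjusted p = 0.0478). The same shares over all kept probes stand beside the counts of each list below.

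In the multiciliogenesis program, which turns a dividing cell into one with many cilia, 5 of 6 kept genes rose in SOD1-WT and 2 in SOD1-G93A glia against nontransgenic glia. Without the filter 5 of 11 rose in SOD1-WT and 2 in SOD1-G93A glia, and of the 4 detected on all arrays 3 and 2 rose. Ccno, a cyclin-like protein needed to multiply centrioles, gave 5.43, 5.47 and 5.32 on nontransgenic arrays, 5.94, 5.84 and 5.91 on SOD1-G93A arrays and 6.59, 6.84 and 6.77 on SOD1-WT arrays. The groups were stepwise, with rises of 0.49 ± 0.10 in SOD1-G93A (adjusted p = 0.00496) and 1.33 ± 0.10 in SOD1-WT glia (adjusted p = 1.88e-07). Rfx2, an RFX factor that acts on ciliary genes, gave 9.13, 9.21 and 8.87 on nontransgenic arrays, 9.58, 9.52 and 9.59 on SOD1-G93A arrays and 10.39, 10.25 and 10.20 on SOD1-WT arrays. It was stepwise as well (0.50, adjusted p = 0.00767, and 1.21, adjusted p = 1.08e-06). Deup1, which builds the deuterosomes that multiply centrioles, and Rfx3 were detected on 0 nontransgenic arrays and were at least 1.32-fold and 1.38-fold higher in SOD1-WT glia (adjusted p = 0.000343 and 0.00139). A second kept Rfx3 probe did not pass (0.30, adjusted p = 0.0861). Ccp110, a cap of centrioles that holds back cilium growth, rose in SOD1-WT glia (0.43, adjusted p = 0.00667) and fell in SOD1-G93A against SOD1-WT glia (-0.48, adjusted p = 0.00513). Plk4, a kinase that duplicates centrioles in dividing cells too, did not pass (-0.07, adjusted p = 0.694). Myb, Foxn4 and E2f5 were detected on 0 arrays.

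Among docking, regulatory complex and ruler proteins, which place the dynein arms and link the doublets, 8 of 8 kept genes rose in SOD1-WT glia, 2 rose in SOD1-G93A glia, and 7 fell in SOD1-G93A against SOD1-WT glia. Ccdc40 and Iqcd were kept through the SOD1-WT arrays alone, so these counts are not free of the filter. Without it, 9 of 11 rose in SOD1-WT and 1 in SOD1-G93A glia, and of the 5 detected on all arrays 5 and 2 rose. Iqcg, a subunit of the nexin-dynein regulatory complex, gave 4.97, 5.25 and 4.93 on nontransgenic arrays, 5.70, 5.27 and 5.61 on SOD1-G93A arrays and 6.57, 6.30 and 6.81 on SOD1-WT arrays. It was 2.84-fold higher in SOD1-WT glia (adjusted p = 3.02e-06) and did not pass in SOD1-G93A glia (0.48, adjusted p = 0.0561). Ccdc65 and Ccdc151, of the regulatory and the outer arm docking complex, rose by 1.20 and 1.10 in SOD1-WT glia (adjusted p = 1.48e-06 and 3e-06). They also rose by 0.39 and 0.47 in SOD1-G93A glia (adjusted p = 0.0322 and 0.0111), calls lost under 7 and 2 of 16 alternatives. Drc7, another subunit of the regulatory complex, rose by 1.05 in SOD1-WT glia (adjusted p = 1.3e-05) and did not pass in SOD1-G93A glia (0.38, adjusted p = 0.0576).

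Of 12 kept genes for other axonemal proteins 11 rose in SOD1-WT and 5 in SOD1-G93A glia. Ttll9, Tctex1d4 and Tctex1d1 were kept through the SOD1-WT arrays alone. Without the filter 11 of 17 rose in SOD1-WT and 3 in SOD1-G93A glia, and of the 8 detected on all arrays 7 and 5 rose. Mdh1b, named for its likeness to malate dehydrogenase, gave 5.73, 5.97 and 5.80 on nontransgenic arrays, 6.25, 6.42 and 6.39 on SOD1-G93A arrays and 7.98, 8.16 and 8.09 on SOD1-WT arrays. It rose 4.73-fold in SOD1-WT (adjusted p = 1.88e-09) and 1.43-fold in SOD1-G93A glia (adjusted p = 0.00428). Capsl, a calcium-binding protein, gave 7.84, 7.97 and 7.85 on nontransgenic arrays, 8.81, 8.86 and 8.76 on SOD1-G93A arrays and 9.78, 9.69 and 9.99 on SOD1-WT arrays. Its rises were 3.82-fold (adjusted p = 6.46e-09) and 1.90-fold (adjusted p = 3.45e-05), and its groups did not overlap. Enkur and Dnajb13, a doublet protein and a radial spoke protein, rose by 1.80 and 1.45 in SOD1-WT glia (adjusted p = 4.59e-07 and 9.96e-07) and by 0.54 and 0.56 in SOD1-G93A glia (adjusted p = 0.0291 and 0.0107), calls lost under 5 and 2 of 16 alternatives. Tctex1d1 and Tctex1d4, which carry the domain of the Tctex dynein light chains, were at least 1.79-fold and 1.75-fold higher in SOD1-WT than in nontransgenic glia (adjusted p = 4.11e-05 and 0.000221 without the filter). Dydc2 did not pass (0.00, adjusted p = 0.981).

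Of the dynein arm assembly factors, 3 of 8 kept genes rose in SOD1-WT and 0 in SOD1-G93A glia. Spag1 and Ccdc103 rose by 0.93 and 0.85 (adjusted p = 3.5e-05 and 0.000171) and Dnaaf2 by 0.41 (adjusted p = 0.0114). Ruvbl1, Ruvbl2, Pih1d1 and Rpap3, which also serve the assembly of other protein complexes, did not pass. Probes disagreed for Dnaaf1, where the brighter gave 0.09 (adjusted p = 0.683) and the dimmer, detected on 0 nontransgenic arrays, was at least 2.54-fold higher in SOD1-WT glia (adjusted p = 1.38e-07), and for Ruvbl1, where they gave 0.23 (adjusted p = 0.228) and 0.55 (adjusted p = 0.00403).

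Cytoplasmic dynein, the cargo motor that most cells use, was taken as a contrast, in a list that also holds dynein 2 genes. Of 9 kept genes 1 rose and 0 fell in SOD1-WT against nontransgenic glia, with a median of -0.02. Over all kept probes 13.5% were higher and 11.8% lower, so nothing particular to this list is read from the count. The gene that rose was Wdr34, an intermediate chain of dynein 2, the motor of transport inside cilia (0.69, adjusted p = 0.000266), and it also rose in SOD1-G93A glia (0.55, adjusted p = 0.00431). Dynlrb1, the sister of Dynlrb2 and a light chain of cytoplasmic dynein, gave 11.44, 11.29 and 11.35 on nontransgenic arrays, 10.73, 10.83 and 10.70 on SOD1-G93A arrays and 11.20, 11.10 and 11.17 on SOD1-WT arrays. It was lowest on the SOD1-G93A arrays (-0.60 against nontransgenic glia, adjusted p = 0.000635) and did not pass in SOD1-WT glia (-0.20, adjusted p = 0.132).

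**Figure D4:**
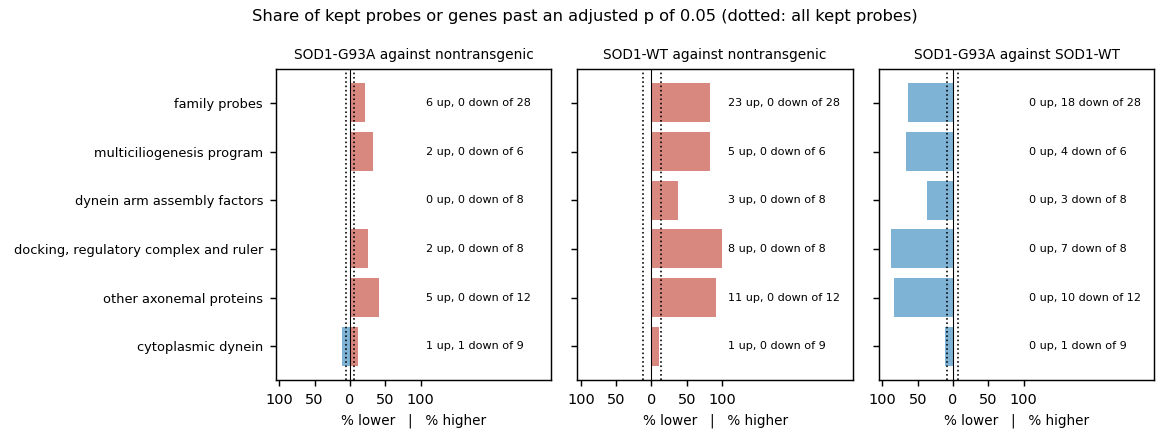
Share of kept family probes and of kept genes in 5 lists that passed an adjusted p of 0.05, higher to the right and lower to the left, in percent, with the counts beside. Dotted lines mark the share of all kept probes; in SOD1-WT against nontransgenic glia the docking list reaches 8 of 8, of which 2 were kept through the SOD1-WT arrays alone, and the cytoplasmic dynein list 1 of 9.

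Markers of other cell types that could be in the cultures moved between the same groups, and their part in the result was not tested. Of 13 kept fibroblast and meninges markers 13 fell in SOD1-WT against nontransgenic glia. Intensity was summed over the 14 with a probe. It came to 32992 to 34965 on nontransgenic, 25788 to 26721 on SOD1-G93A and 5462 to 6975 on SOD1-WT arrays. The widest of these were Ptgds, a prostaglandin synthase, at -6.30 (adjusted p = 1.15e-14), and Mgp, matrix Gla protein, at -6.09 (adjusted p = 1.94e-12). In SOD1-G93A against nontransgenic glia 7 of the 13 fell and 2 rose. Foxc1 was detected on 0 arrays.

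Choroid plexus epithelium carries motile cilia too, and its markers were split. Of 9 kept genes 5 rose and 3 fell in SOD1-WT against nontransgenic glia (median difference 0.39), beside 13.5% higher and 11.8% lower over all kept probes. In SOD1-G93A against nontransgenic glia 5 rose and 3 fell too (median difference 0.69), beside 5.11% and 5.53%. The summed intensity of the 12 listed genes with a probe, which leans on the brightest of them, overlapped between groups. It was 1272 to 2113 on nontransgenic, 1377 to 1944 on SOD1-G93A and 1778 to 1924 on SOD1-WT arrays. Folr1, a folate receptor of this epithelium, gave 6.38, 5.92 and 6.17 on nontransgenic arrays. It gave 7.69, 7.50 and 7.61 on SOD1-G93A arrays and 8.82, 8.61 and 8.46 on SOD1-WT arrays. This was stepwise, as at some of the cilia genes but not at others (2.47 for SOD1-WT against nontransgenic glia, limma adjusted p = 6.09e-09). Otx2 and Cldn2 were high in both transgenic groups (1.91 and 1.63 in SOD1-WT, 1.63 and 1.46 in SOD1-G93A glia). Aqp1, a water channel, went the other way (-4.45 in SOD1-WT glia, adjusted p = 3.29e-09).

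Ttr, the most abundant transcript of choroid plexus, gave 4.90, 4.69 and 4.85 on nontransgenic arrays, 9.12, 8.15 and 5.95 on SOD1-G93A arrays and 4.97, 5.05 and 4.68 on SOD1-WT arrays. It was high on the SOD1-G93A arrays alone and spread widely between them (SD 1.63, n = 3), and in SOD1-WT glia it did not pass against nontransgenic glia (0.09, adjusted p = 0.93). Kl, Lmx1a and Slc4a5 were detected on 0 arrays.

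Markers of ependymal cells other than cilia genes, most of which astrocytes also express, shifted less. Of 8 kept genes 3 rose and 0 fell in SOD1-WT glia, with summed intensities of 15527 to 16302 on nontransgenic, 17650 to 18385 on SOD1-G93A and 18826 to 20890 on SOD1-WT arrays. The 3 were Prom1 (0.78, adjusted p = 0.000224), Aqp4 (0.59, adjusted p = 0.000767) and Sox9 (0.57, adjusted p = 0.000431). Of 9 kept astrocyte markers, 2 of them in the ependymal list as well, 4 rose and 1 fell, with summed intensities of 18829 to 20146, 20874 to 22596 and 22788 to 24884. Astrocyte markers such as Slc1a3, a glutamate transporter, were detected on all 9 arrays, while of 7 neuron markers with a probe Syt1, Nefl, Nefm and Dcx were detected on 0 arrays. In SOD1-WT against nontransgenic glia 1 of 5 kept microglia markers rose and 0 fell, 0 of 7 oligodendrocyte lineage markers rose and 2 fell, 1 of 3 endothelial markers rose and 1 fell, and 0 of 3 neuron markers rose and 1 fell.

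Kdm5d, a gene of the Y chromosome, was detected on the 3 SOD1-WT arrays and on none of the other 6. Of 3 listed genes of the Y chromosome with a probe, it alone was kept, and Uty was detected on 0 arrays. The sex of the pups is not given in the sources used here, and sex and genotype cannot be told apart in these arrays where SOD1-WT glia differ from the others.

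**Figure D5:**
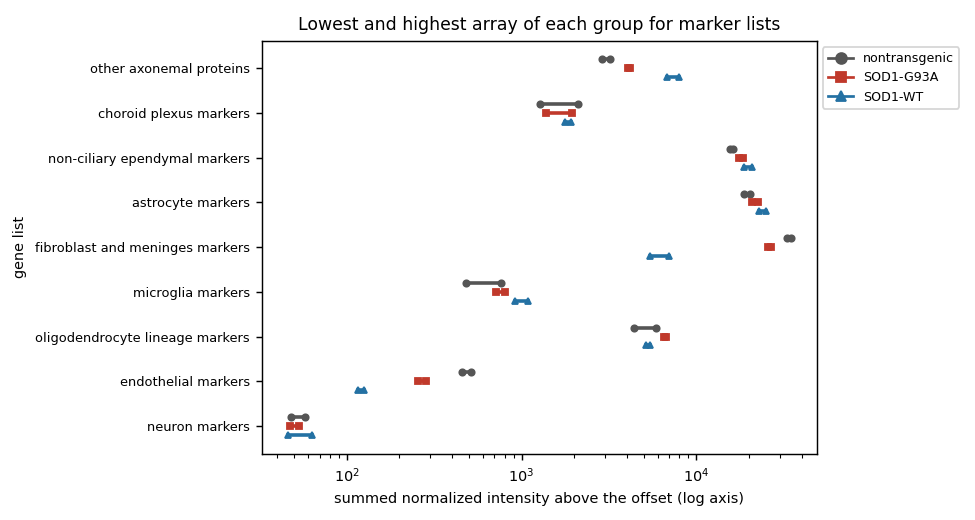
Summed normalised intensity above the offset (log axis) of the genes with a probe in 9 lists, kept or not. A line runs from the lowest to the highest array of each group (n = 3). The other axonemal proteins run from 2903 to 3219 on nontransgenic arrays, 4039 to 4191 on SOD1-G93A arrays and 6783 to 8004 on SOD1-WT arrays, the fibroblast and meninges list runs the other way, and the choroid plexus ranges overlap.

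The median SD between replicates over the 50 kept probes was 0.14 for nontransgenic, 0.13 for SOD1-G93A and 0.11 for SOD1-WT glia, against 0.11, 0.11 and 0.14 over all kept probes. Within the nontransgenic group, replicate 2 was the highest array for 26 of the 50 probes and replicate 1 the lowest for 27. In the other groups no array was the highest for more than 22 of the 50.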

How the data were processed

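The array measured RNA from 9 glial cultures, 3 each of nontransgenic, SOD1-G93A and SOD1-WT pups, grouped by their labels. Per the file headers, the authors' deposited raw table gives for each of 24613 probes a mean bead intensity, the number of beads, their standard error and a detection p-value. Per the submitters' processing notes the authors used BeadStudio, version not stated, and no genome build is given in the sources used here. The authors' deposited table of normalised intensity is a linear function of the raw values in every array (largest residual 0.00905) and served as an alternative after 11.1 was added before log2.

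Raw intensities went through neqc in limma 3.58.1 (R 4.3.3): background from the detection p-values, an offset of 16, quantile normalisation and log2. The filter kept the 13972 probes that at least 3 of 9 arrays detected at p below 0.01. A single limma fit held all arrays and 1 coefficient per group (residual degrees of freedom 6, prior 7.52). Tests were two-sided, p-values were adjusted after Benjamini and Hochberg over the kept probes of each comparison, and the threshold was 0.05. The fit was tested on simulated data. Platform annotation gave 20984 probes 1 symbol, 1 probe several and 3628 none. Mean bead counts were 34.8 to 35.7 per array.

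The members, gene lists and tests were chosen with earlier results of these data known. The lists were multiciliogenesis, dynein arm assembly, docking with regulatory complex and ruler, other axonemal proteins, cytoplasmic dynein, and markers of choroid plexus, ependymal cells, astrocytes, fibroblasts and meninges, microglia, oligodendrocyte lineage, neurons, endothelium and the Y chromosome. A listed gene was represented by its brightest kept probe. Every member with a kept probe is named, with values by array for named genes and for family probes past the threshold in any comparison. Listed genes past the threshold were named up to 4 a list and comparison by smallest p, and markers up to 4 a list by size of change. Other listed genes in the text (those not past the threshold or with probes that disagree, and markers beyond the rule) were chosen after their values were seen.

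Alternatives were no background correction, median scaling, the authors' normalised table, no filter, detection on all 9 arrays, a trended robust prior, the replicate number as a block, and leaving out each array.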

Additional observations from a re-analysis of the deposited data

How the results depend on the processing

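Among results past the threshold, no direction reversed under the 16 alternatives run. The same held for named probes whose difference exceeded the larger SD of the groups compared. For other single probes a change of sign was not checked. The counts kept within 1.5 times of those reported except in SOD1-G93A against nontransgenic glia. There, leaving out 1 array took the family count to 3 to 6 and the other motile cilium genes to 5 to 12, against 6 and 9. In SOD1-WT against nontransgenic glia these runs gave 21 to 22 and 22 to 27, and in SOD1-G93A against SOD1-WT glia 17 to 19 and 18 to 24. Deviations of arrays with the same replicate number correlated at -0.02 to 0.15, with 3 of 9 pairs above 0.1. With different numbers they correlated at -0.20 to 0.19, with 3 of 18 pairs above 0.1. These values do not settle whether replicate numbers pair the arrays. With the replicate number as a block, family counts were 5, 22 and 18 and counts of other motile cilium genes 8, 27 and 23, in the order of comparisons above. Among single genes the calls lost most often were, against nontransgenic glia, Cfap74 in SOD1-WT glia (13 of 16 alternatives) and Nme5 (10), the second probe of Cfap206 (9), Tekt4 (9) and Ccdc65 (7) in SOD1-G93A glia, and, in SOD1-G93A against SOD1-WT glia, Iqcd (8 of the 12 that kept it). The median difference of named probes ranged from 0.18 to 0.39, 1.54 to 1.65 and -1.41 to -1.19. Ratios against a group with no array detected are given as bounds, and 3 arrays a group limit every count.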
